A study of Mus musculus and Homo sapiens with 176 samples.

Results

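Cytosolic ribosomal proteins are the protein parts of the ribosome that works in the cytoplasm, and their genes were followed here in RNA of sorted mouse brain nuclei. Genes were taken by symbol: names of the forms Rpl and Rps with a number and an optional closing letter or copy number, the stalk proteins Rplp0 to Rplp2, and Rpsa. The pattern found 84 features, and 1 of them, Rps4l, is a transcribed pseudogene in the RefSeq gene table and was left out. That left 83 of the 24854 features in each table, 51 of the large and 32 of the small subunit. All 83 symbols were found in the RefSeq gene table, and every value of the 83 carried the quantification status OK.

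The RNA came from nuclei of 8 to 10 week old C57BL/6 mice, wild type as far as the labels say, sorted by antibody staining for NeuN, a nuclear protein of most neurons made by the gene Rbfox3. There were 4 groups with 2 libraries each: cerebellar NeuN+, cerebellar NeuN-, prefrontal NeuN+ and prefrontal NeuN-. All 8 libraries bear the name of the same mouse, M3, so p-values rest on how far libraries of 1 animal lie apart, a spread that may be technical. A dissection protocol is given for cerebellum only, and the labels do not say what libraries with the same replicate number share. The other 168 samples of the series, chromatin libraries of mouse brain and of a human cell line, were not used here.

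The sort was checked on marker messages, in FPKM as deposited, a fragment number divided by transcript length and by library size. Rbfox3 stood at 123 and 119 FPKM in cerebellar NeuN+ libraries and at 33.3 and 34.5 FPKM in cerebellar NeuN- libraries. It stood at 16.2 and 15.7 FPKM in prefrontal NeuN+ libraries, against 14.2 and 12.3 FPKM in prefrontal NeuN- libraries, so the gate separated this message less in prefrontal cortex. Of 11 general neuronal messages, 9 were higher and 1 was lower in NeuN+ in cerebellum, while 3 were higher and 5 were lower in prefrontal cortex. Lists of neuron types differed from this. All 5 cortical projection neuron markers were higher in prefrontal NeuN+. Of 3 inhibitory neuron markers, 2 were higher and 0 lower in prefrontal NeuN+, and 0 were higher and 2 lower in cerebellar NeuN+. All 6 granule cell markers were higher in cerebellar NeuN+, and in prefrontal NeuN+ 0 were higher and 3 lower. Snap25, a synaptic protein, had 980 and 976 FPKM in prefrontal NeuN+ libraries and 1579 and 1664 FPKM in the libraries labelled prefrontal NeuN-. All 8 astrocyte and all 8 oligodendrocyte messages were lower in NeuN+ in both regions. The libraries labelled prefrontal NeuN- therefore hold neuronal messages beside glial ones. In such bulk samples, fewer cells of a type and less RNA per cell cannot be told apart.

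A ribosome has a small subunit, which reads the message, and a large subunit, which joins the amino acids, and each holds most of its proteins in equal numbers. Their messages share a run of pyrimidines at the very start of the RNA, the terminal oligopyrimidine tract, through which mTOR signalling adjusts their translation. The proteins are imported into the nucleus and assembled with ribosomal RNA in the nucleolus. Many of the genes carry small nucleolar RNAs in their introns, and the mammalian genome holds many processed copies of them.

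Sequence around the annotated start was available for 63 of the 83 genes, in the RefSeq promoter table of GRCm38.p6. It is shown as 60 bases, 40 before the start and 20 from it on, for genes on which the results below turn. Capitals mark a run that opens with C and continues with C or T, at least 5 letters in all, beginning within 5 bases of the start. Rpl35, Rps6, Rps18, Rpl38 and Rpl15 have such a run, and Rpl22, at either of its 2 listed starts, and Rpl7l1 have none.
Rpl35 (chr2:39005112-39005171, minus strand): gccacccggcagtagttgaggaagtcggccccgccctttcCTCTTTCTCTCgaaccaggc
Rps6 (chr4:86857348-86857407, minus strand): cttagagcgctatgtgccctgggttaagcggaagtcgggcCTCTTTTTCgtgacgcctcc
Rps18 (chr17:33955646-33955705, minus strand): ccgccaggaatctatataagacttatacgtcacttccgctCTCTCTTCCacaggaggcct
Rpl38 (chr11:114668540-114668599, plus strand): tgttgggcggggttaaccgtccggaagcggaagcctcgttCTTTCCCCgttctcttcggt
Rpl15 (chr14:18270967-18271026, minus strand): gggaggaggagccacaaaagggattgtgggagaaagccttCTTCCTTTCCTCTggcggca
Rpl22, first start (chr4:152325686-152325745, plus strand): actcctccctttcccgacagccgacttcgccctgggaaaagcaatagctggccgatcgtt
Rpl22, second start (chr4:152324396-152324455, plus strand): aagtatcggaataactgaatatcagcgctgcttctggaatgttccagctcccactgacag
Rpl7l1 (chr17:46782637-46782696, minus strand): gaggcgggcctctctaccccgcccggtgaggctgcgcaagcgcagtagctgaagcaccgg

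The run was found at 23 of the 63 genes (36.5%), against 15.6% of all 27025 symbols in the table. The letters CCGGAAG, the core bound by ETS factors, stood on either strand in the 300 base promoters of 41.3% of the genes, against 9.93% of all symbols. AAGATGGC, the core of the YY1 motif, was found in 9.52% against 3.19%, GGGCGG, the core of the Sp1 box, in 61.9% against 38.2%, and TATAAA in 11.1% against 15.7%. These are matches of letters in the annotated window, and a gene can be listed at a start that its main message does not use.

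Of the 83 genes, 80 reached 1 FPKM in at least 2 libraries and were tested, 48 of the large and 32 of the small subunit. The other 3 are paralogs known for tissue-restricted use: Rpl10l, a testis copy of Rpl10, was listed at 0 in all 8 libraries, Rpl39l was above 0 in 1 library (0.122 FPKM in prefrontal NeuN+ replicate 1), and Rpl3l, a muscle copy of Rpl3, reached at most 0.271 FPKM. The median gene stood at 93.8 and 94.6 FPKM in cerebellar NeuN+ libraries, at 89.7 and 86.2 FPKM in cerebellar NeuN-, at 66.0 and 64.3 FPKM in prefrontal NeuN+ and at 106 and 93.5 FPKM in prefrontal NeuN-. Together the 83 genes made up 3.16% and 3.14% of all FPKM in cerebellar NeuN+ libraries, 2.80% and 2.80% in cerebellar NeuN-, 1.87% and 1.82% in prefrontal NeuN+ and 2.33% and 2.05% in prefrontal NeuN-. By this share the cerebellar libraries stand above the prefrontal ones, and prefrontal NeuN+ is lowest.

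Levels among the genes spanned a wide range. Rpl38, known from a mouse mutant for its role in translating Hox messages, was highest on average (mm9 chr11:114529857-114533645): it had 599 and 552 FPKM in cerebellar NeuN+ libraries, 594 and 576 in cerebellar NeuN-, 197 and 172 in prefrontal NeuN+ and 448 and 306 in prefrontal NeuN-. Its prefrontal NeuN+ libraries were the lowest and did not overlap with any other group. Rpl41, which encodes the shortest ribosomal protein, followed with a mean of 366 FPKM over the 8 libraries, then Rps29, Rpl35 and Rps14. At the low end, Rpl22 had between 6.79 and 16.3 FPKM and Rps15a between 1.72 and 4.46 FPKM. Features named as copies of Rps15a lie on other chromosomes. Rps15a-ps6 had between 5.96 and 12.9 FPKM and Rps15a-ps4 between 1.84 and 10.9 FPKM. Copies of Rpl14, Rpl31, Rplp2 and Rps19 are also listed on other chromosomes. Whether fragments were shared between these genes and their copies was not tested, so the low level of Rps15a is uncertain. In each library the gene at the 90th percentile stood 4.63 to 6.60 times above the gene at the 10th.

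FPKM divides by the length a transcript can offer to fragments, and the tables' confidence limits show how uneven this is. Read as 2 standard deviations of a fragment count, they imply a median of 1.37 fragments per FPKM for Rpl38, 4.40 for Rpl41, 20.5 for Rpl3, 42.8 for Rpl7l1 and 85.6 for Rps15a. By this estimate Rpl38 rested on a mean of 602 fragments a library and Rps15a on 230, so their levels in FPKM lie further apart than their fragment numbers. Over the 80 genes the mean FPKM and the fragments per FPKM had a Spearman correlation of -0.34, across genes that share the same libraries and the same length correction. Leaving out 4 genes treated with their overlapping copies below, the implied fragments ran from 94.6 for Rps28 to 4913 for Rpl7l1, with a median of 730. The actual depth is not stated, and the fragment numbers are estimates that were not whole numbers in the tables. This measure was chosen after values had been seen.

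**Figure D1:**
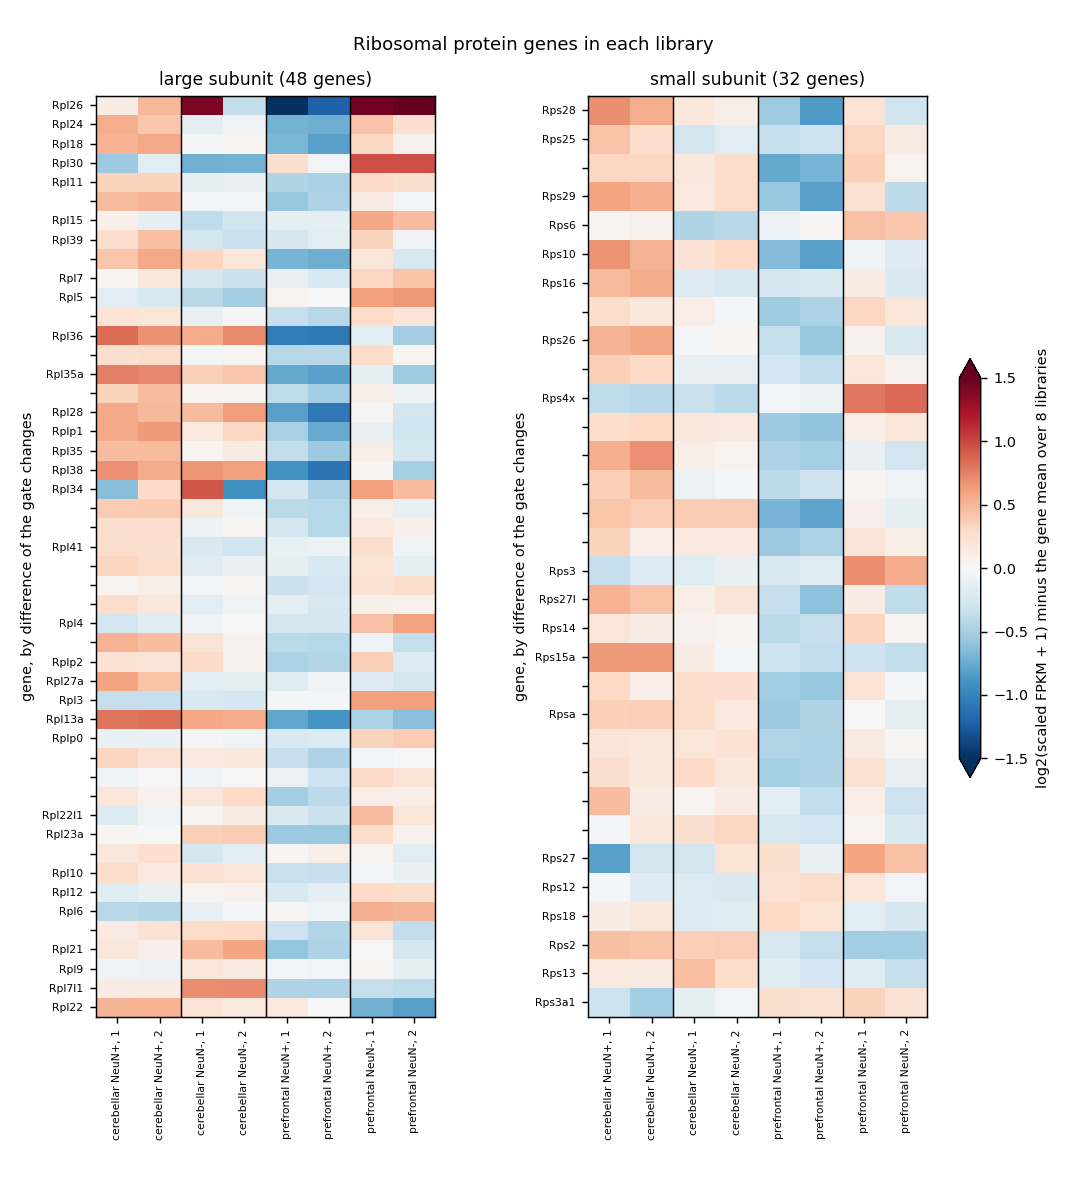
Each row is 1 of the 80 tested genes, with names only for genes that the text describes, and each column 1 library, cerebellar NeuN+ and NeuN- and then prefrontal NeuN+ and NeuN-, replicates 1 and 2; colour gives log2(scaled FPKM + 1) minus the gene's mean over the 8 libraries, cut at 1.5. The prefrontal NeuN+ columns are blue for most genes, and 59 of the 80 have their lowest group mean there, a count not taken over all features.

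For the tests, FPKM were scaled between libraries by a median of ratios, and log2(scaled FPKM + 1) was compared with limma over 14376 features. A gene is called higher or lower at an adjusted p under 0.05, and log2 changes carry their standard error. A log2 change with the added 1 understates the change of low genes.

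In prefrontal cortex, 58 of the 80 ribosomal protein genes were lower and 3 were higher in NeuN+ than in NeuN- libraries. Over all features, 37.6% were lower and 35% higher. The median log2 change was -0.50 for the ribosomal protein genes and -0.01 for all features. Rpl24, whose mouse mutant has a belly spot and a kinked tail (mm9 chr16:55966388-55971550), had 71.2 and 70.0 FPKM in prefrontal NeuN+ libraries, against 188 and 163 FPKM in NeuN- libraries. The groups did not overlap, and the log2 change was -1.06 ± 0.08 (SE, adjusted p = 2.8e-05). Rpl18, of the large subunit, had 72.1 and 65.8 FPKM in NeuN+ and 173 and 142 FPKM in NeuN- libraries (log2 change -0.94 ± 0.09, adjusted p = 1.1e-04). Rps4x, the X-linked Rps4 gene, fell by 0.88 ± 0.04 (adjusted p = 6.1e-06), Rps3 by 0.83 ± 0.08 (adjusted p = 8.2e-05), Rpl28 by 0.81 ± 0.13 (adjusted p = 1.2e-03), Rpl4 by 0.79 ± 0.07 (adjusted p = 5.7e-05) and Rpl38 by 0.77 ± 0.16 (adjusted p = 5.1e-03).

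The 3 genes higher in prefrontal NeuN+ were Rpl22, Rps18 and Rps2. Rpl22, an RNA-binding protein of the large subunit needed for T cell development (mm9 chr4:151698545-151708191), had 12.3 and 11.1 FPKM in NeuN+ libraries, against 7.46 and 6.79 FPKM in NeuN- libraries, without overlap. Its log2 change was 0.85 ± 0.07 (adjusted p = 4.2e-05). Rps18, a protein of the small subunit's head, had 214 and 200.5 FPKM in NeuN+ and 185 and 170 FPKM in NeuN- libraries (0.46 ± 0.06, adjusted p = 3.2e-04). Rps2, at the small subunit's entry for the message, had 97.7 and 89.9 FPKM in NeuN+ and 95.6 and 94.2 FPKM in NeuN- libraries as deposited, values that overlap. After scaling it was higher by 0.22 ± 0.05 (adjusted p = 6.4e-03), and without the scaling the change was -0.02 and not called.

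The size of the prefrontal difference depends on the scaling between libraries. The FPKM of the prefrontal NeuN- libraries sum to 426851 and 414230 and those of the other 6 to between 289350 and 307198. As deposited, the median was -0.74 with 70 lower and 2 higher. With quantile normalization it was -0.26 with 39 lower and 8 higher, and at a common sum -0.28 with 44 lower and 9 higher. The median of all features moved to -0.19, 0.08 and 0.14, and the share of all calls that were higher was 36.1%, 55.4% and 59.9%, against 48.2% with the scaling used. Set against the median of all features, the ribosomal protein genes stood at -0.54, -0.34 and -0.43 under the alternatives and at -0.49 in the scaling used. Without prefrontal NeuN- replicate 1 the median was -0.40 and 5 genes were higher.

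Summed messages of blood and glial cells moved with this difference. The haemoglobin genes and Alas2, listed as red blood cell markers in 5 features, summed to 254 to 268 FPKM in prefrontal NeuN+ libraries and to 766 to 866 FPKM in prefrontal NeuN- libraries. They summed to 816 to 835 FPKM in cerebellar NeuN+ and to 739 to 777 FPKM in cerebellar NeuN- libraries, so prefrontal NeuN+ was lowest, as for the ribosomal protein genes. The prefrontal sums rest on the Hba-a1 features and Hbb-b1, since Hbb-bs was at or below 0.00561 FPKM in the prefrontal libraries. Alas2, the enzyme that opens haem synthesis in red cells, was at or below 0.497 FPKM in all 8 libraries. It went the other way, with 0.383 and 0.497 FPKM in prefrontal NeuN+ and 0 and 0.0924 FPKM in prefrontal NeuN- libraries. The 7 microglia markers summed to 22.4 to 25.2 FPKM in prefrontal NeuN+ and to 527 to 530 FPKM in prefrontal NeuN- libraries. The part of these messages in the ribosomal protein result was not tested.

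In cerebellum, 36 of the 80 genes were higher and 10 were lower in NeuN+ than in NeuN- libraries. Over all features, 32.4% were higher and 39.2% lower, and the median log2 change was 0.19 for the ribosomal protein genes against -0.04 for all features. Rps16, of the small subunit's head, had the largest rise on the log2 scale with the added 1 (0.73 ± 0.10, adjusted p = 5.9e-04). It had 124 and 133 FPKM in NeuN+ libraries, against 77.9 and 76.2 FPKM in NeuN- libraries. Rpl27a had 38.7 and 34.7 FPKM in NeuN+ and 22.4 and 23.3 FPKM in NeuN- libraries (0.66 ± 0.07, adjusted p = 2.2e-04), and Rpl39 had 57.6 and 66.8 FPKM in NeuN+ and 40.1 and 38.6 FPKM in NeuN- libraries (0.65 ± 0.13, adjusted p = 3.8e-03). In each of these 3 genes both NeuN+ libraries stood above both NeuN- libraries.

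Rps15a, Rpl24, Rps25, Rps26 and Rpl18 also rose in cerebellar NeuN+, by 0.54 to 0.59. Rps15a is a low gene, with mean scaled FPKM of 4.62 in cerebellar NeuN+ and 2.73 in cerebellar NeuN-, so the added 1 understates its change. The part of its listed copies in this change was not tested. Rps25 is needed for translation from some internal ribosome entry sites, and Rps26 is one of the genes mutated in Diamond-Blackfan anaemia. The lower genes were led by Rpl7l1, a paralog of Rpl7, with 71.2 and 71.9 FPKM in NeuN+ and 107 and 108 FPKM in NeuN- libraries (-0.58 ± 0.04, adjusted p = 1.3e-05). Rpl21 fell by 0.42 ± 0.10 (adjusted p = 7.6e-03), Rpl23a, which lies at the exit of the nascent chain, by 0.36 ± 0.07 (adjusted p = 2.8e-03), and Rpl6 by 0.36 ± 0.05 (adjusted p = 7.8e-04). Rps3a1, Rpl9, Rps13, Rpl12, Rpl4 and Rpl3 were also lower, by 0.32 to 0.10. Of these, Rps13, Rpl4 and Rpl3 lost the call in several of 19 alternative settings, and without cerebellar NeuN+ replicate 1 the count of lower genes was 6. With quantile normalization, 55.8% of all calls were higher, against 45.2% in the scaling used, and the counts for the ribosomal protein genes were 35 higher and 11 lower.

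The change with the gate was tested for its difference between the regions, as the cerebellar log2 change minus the prefrontal one. It was higher for 62 of the 80 genes and lower for 3, while over all features 33.1% were higher and 37% lower. The median difference was 0.71 for the ribosomal protein genes and -0.06 for all features. Some marker lists moved with it. Of 11 general neuronal markers 7 were higher and 2 lower (median 0.79), and of 8 oligodendrocyte markers 7 were higher and 0 lower (median 1.22). All 6 tested microglia markers were higher (median 2.38), and 4 of 8 astrocyte markers were higher and 1 lower (median 0.63). Other lists went the other way. All 3 inhibitory neuron markers were lower (median -1.62), and of 5 cortical projection neuron markers 4 were lower and 1 higher (median -0.50). Of 2 tested vessel markers 1 was lower and 0 higher (median -0.67). The general neuronal markers summed to 1293 to 1310 FPKM in cerebellar NeuN+, 704 to 720.1 in cerebellar NeuN-, 1460 to 1472 in prefrontal NeuN+ and 2197 to 2294 in prefrontal NeuN- libraries. The granule cell markers summed to 468 to 473 FPKM in cerebellar NeuN+ and 135 to 136 in cerebellar NeuN- libraries. Their sums were 2.53 to 2.58 in prefrontal NeuN+ and 13.5 to 15.0 in prefrontal NeuN-, with Gabra6 and Fat2 at 0 in both prefrontal NeuN+ libraries. The oligodendrocyte markers summed to 205 to 209 FPKM in cerebellar NeuN+, 1542 to 1576 in cerebellar NeuN-, 84.4 to 90.2 in prefrontal NeuN+ and 2108 to 2167 in prefrontal NeuN- libraries. The 7 microglia markers summed to 12.7 to 14.4 FPKM in cerebellar NeuN+ and 41.5 to 43.8 in cerebellar NeuN- libraries, beside the prefrontal sums given above, with Aif1 at 0 in both cerebellar NeuN+ and C1qa at 0 in both cerebellar NeuN- libraries. The 8 astrocyte markers summed to 119 to 126 FPKM in cerebellar NeuN+, 680.2 to 689 in cerebellar NeuN-, 69.6 to 69.7 in prefrontal NeuN+ and 1030.3 to 1065 in prefrontal NeuN- libraries. The part of these messages in the difference was not tested. Of the 80 genes, 26 were both lower in prefrontal NeuN+ and higher in cerebellar NeuN+. The difference was called for all 26, which opposite calls in the same fit nearly settle beforehand. Another 26 were lower in prefrontal NeuN+ and not called in cerebellum, 6 were lower in NeuN+ in both regions, and 2, Rpl22 and Rps18, were higher in NeuN+ in both. Such pairs of calls were not counted over all features, so these counts have no background share.

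Rpl11, which with Rpl5 and 5S ribosomal RNA binds Mdm2, the regulator of p53, illustrates the opposite changes. It had 133 and 135 FPKM in cerebellar NeuN+ libraries and 96.1 and 98.7 FPKM in cerebellar NeuN- libraries, and it had 77.0 and 74.8 FPKM in prefrontal NeuN+ libraries and 153 and 145 FPKM in prefrontal NeuN- libraries. No library of a NeuN+ group overlapped with its NeuN- group in either region, and the difference was 1.19 ± 0.06 (adjusted p = 1.1e-05). Rpl24 differed by 1.64 ± 0.11 (adjusted p = 3.2e-05), Rpl18 by 1.477 ± 0.13 (adjusted p = 9.1e-05), Rps28 by 1.14 ± 0.25 (adjusted p = 5.9e-03) and Rps25 by 1.12 ± 0.12 (adjusted p = 2.2e-04). In the other direction stood Rpl22 at -0.51 ± 0.09 (adjusted p = 2.9e-03), Rpl7l1 at -0.50 ± 0.05 (adjusted p = 1.9e-04) and Rpl9 at -0.25 ± 0.08 (adjusted p = 0.031). The counts were 66 higher and 2 lower as deposited, 48 and 7 with quantile normalization and 54 and 7 at a common sum, where 57.6%, 51.2% and 37.7% of all calls were higher, against 47.2% in the scaling used.

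**Figure D2:**
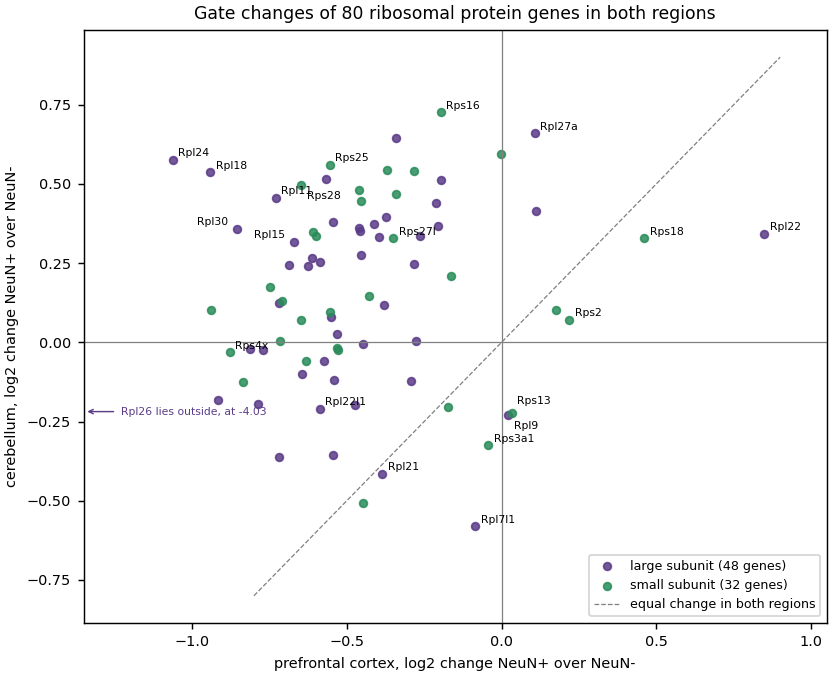
Each point is 1 of the 80 genes, with its log2 change of NeuN+ over NeuN- in prefrontal cortex on the horizontal axis and in cerebellum on the vertical axis, large and small subunit in different colours. Most points lie above the dashed line of equal change and left of 0; the 3 genes called higher in prefrontal NeuN+, Rpl22, Rps18 and Rps2, lie right of it, and Rpl26, at -4.03, lies outside the axes and is marked by an arrow.

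Among NeuN+ libraries, 61 of the 80 genes were higher and 8 were lower in cerebellum than in prefrontal cortex, where over all features 36.5% were higher and 40.7% lower. The median log2 change was 0.64 for the ribosomal protein genes and -0.03 for all features. Rpl36 had 258 and 235 FPKM in cerebellar NeuN+ libraries, against 69.2 and 68.0 FPKM in prefrontal NeuN+ libraries (1.82 ± 0.12, adjusted p = 1.5e-05). Rpl13a, which also serves in a complex that silences the translation of inflammatory messages, had 66.6 and 68.5 FPKM in cerebellar and 21.5 and 19.9 FPKM in prefrontal NeuN+ libraries (1.65 ± 0.06, adjusted p = 1.2e-06). In both genes the cerebellar libraries lay more than 3-fold above the prefrontal ones. Rpl38 was higher by 1.63 ± 0.16 (adjusted p = 1.1e-04), Rpl35a by 1.54 ± 0.12 (adjusted p = 2.9e-05), Rpl28 by 1.479 ± 0.13 (adjusted p = 4.9e-05), Rps10 by 1.32 ± 0.09 (adjusted p = 1.3e-05) and Rps28 by 1.31 ± 0.18 (adjusted p = 4.5e-04).

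The lower genes of this comparison were led by Rps3a1, with 56.1 and 49.3 FPKM in cerebellar and 82.2 and 81.7 FPKM in prefrontal NeuN+ libraries (-0.64 ± 0.08, adjusted p = 2.5e-04). Rpl6 fell by 0.41 ± 0.05 (adjusted p = 3.5e-04), Rps12 by 0.36 ± 0.09 (adjusted p = 8.0e-03), Rps4x by 0.34 ± 0.04 (adjusted p = 4.5e-04), Rpl3, near the peptidyl transferase centre, by 0.32 ± 0.04 (adjusted p = 2.2e-04) and Rpl5 by 0.22 ± 0.05 (adjusted p = 8.1e-03). Rps27 and Rpl30 were the other 2 and change sign when summed with an overlapping copy, as given below. With the 3 other scalings 61 to 66 genes were higher and 6 to 7 lower. Of all calls, 47.6% were higher as deposited, 53.9% with quantile normalization and 50.5% at a common sum, against 47.2% in the scaling used. Without prefrontal NeuN+ replicate 1 the count of lower genes was 5.

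Both prefrontal NeuN+ libraries lay below all 6 other libraries for 50 of the 80 genes in scaled FPKM, against 16.8% of all features. At a common sum this held for 41 genes, against 14.8% of all features. The group means had medians of 96.4 scaled FPKM in cerebellar NeuN+, 93.1 in cerebellar NeuN-, 67.9 in prefrontal NeuN+ and 89.2 in prefrontal NeuN-. The order of the upper groups depends on the scaling: as deposited, the median gene stood at 93.8 and 94.6 FPKM in cerebellar NeuN+ and at 106 and 93.5 FPKM in prefrontal NeuN- libraries. In scaled FPKM the highest group was cerebellar NeuN+ for 43 genes, prefrontal NeuN- for 22, cerebellar NeuN- for 13 and prefrontal NeuN+ for 2. The highest group was not counted over all features.

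Among NeuN- libraries, 22 of the 80 genes were higher and 25 were lower in cerebellum than in prefrontal cortex, where over all features 40.5% were higher and 39% lower. The median log2 change was 0.01 for the ribosomal protein genes and 0.02 for all features. This balance rests on the scaling: as deposited, 11 genes were higher and 38 lower with a median of -0.21, with quantile normalization 47 and 9 with a median of 0.35, and at a common sum 44 and 10 with a median of 0.31. The share of all calls that were higher was 42.7%, 53.2% and 62.1% under these settings, against 51.0% in the scaling used.

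Single genes moved far in both directions here. Rpl13a had 57.0 and 56.7 FPKM in cerebellar NeuN- libraries, against 31.9 and 28.1 FPKM in prefrontal NeuN- libraries (1.12 ± 0.06, adjusted p = 6.6e-06), and Rpl7l1 had 107 and 108 FPKM, against 60.2 and 58.4 FPKM (1.07 ± 0.04, adjusted p = 9.6e-07). Rpl36, Rpl22, Rps2, Rpl38, Rpl35a, Rpl28, Rpl21 and Rps13 were next, higher by 0.98 to 0.63. Rps4x had 57.1 and 55.1 FPKM in cerebellar NeuN- libraries, against 149 and 152 FPKM in prefrontal NeuN- libraries (-1.18 ± 0.04, adjusted p = 1.5e-06), and Rpl5 had 31.1 and 29.4 FPKM, against 76.5 and 76.9 FPKM (-1.09 ± 0.05, adjusted p = 3.7e-06). Groups did not overlap in any of these 4 genes. Rpl15, Rpl3, Rps6, Rps3, Rpl7, Rpl6 and Rpl4 were lower by 0.87 to 0.55, Rps6 being the substrate of S6 kinase downstream of mTOR.

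Counts were also taken by subunit. Among all features, 37.6% were lower and 35% higher in the prefrontal gate comparison, and 32.4% were higher and 39.2% lower in the cerebellar one. The shares were 36.5% higher and 40.7% lower between NeuN+ groups, and 33.1% higher and 37% lower for the difference of the gate changes. In the prefrontal gate comparison 37 of 48 large subunit genes were lower and 1 higher (median -0.54), and 21 of 32 small subunit genes were lower and 2 higher (median -0.46). In the cerebellar gate comparison 24 large subunit genes were higher and 8 lower (median 0.24), and 12 small subunit genes were higher and 2 lower (median 0.14). Between the NeuN+ groups 36 large subunit genes were higher in cerebellum and 4 lower (median 0.57), and 25 small subunit genes were higher and 4 lower (median 0.72). Between the NeuN- groups the medians were -0.14 for the large and 0.05 for the small subunit. For the difference of the gate changes 38 large subunit genes were higher and 3 lower (median 0.68), and 24 small subunit genes were higher and 0 lower (median 0.71). A difference between the subunits was not tested, since the genes of a subunit are not replicates.

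In level, the median large subunit gene stood at 0.86 and 0.84 times the median small subunit gene in cerebellar NeuN+ libraries. In cerebellar NeuN- it stood at 1.16 and 1.104 times. It stood at 0.98 and 0.94 times in prefrontal NeuN+ and at 0.98 and 1.01 times in prefrontal NeuN-. The median gene can differ between libraries, so these ratios need not follow the changes gene by gene. In the cerebellar gate comparison the median change was 0.24 for the large and 0.14 for the small subunit. Of the stalk proteins, Rplp1, which is acidic, had 228 and 241 FPKM in cerebellar NeuN+ and 109 and 90.4 FPKM in prefrontal NeuN+ libraries (1.22 ± 0.11, adjusted p = 5.6e-05), and Rplp0, which anchors the acidic ones, had 52.7 and 53.5 FPKM in cerebellar and 48.0 and 49.1 FPKM in prefrontal NeuN+ libraries (0.11 ± 0.04, adjusted p = 0.037).

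**Figure D3:**
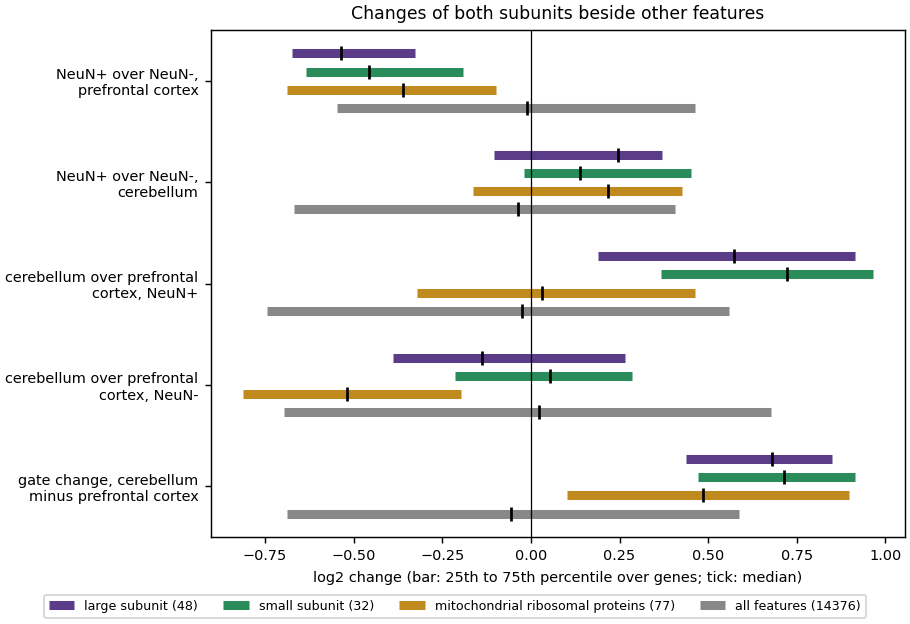
Bars give the 25th to 75th percentile and ticks the median of the log2 change over large subunit genes (48), small subunit genes (32), mitochondrial ribosomal protein genes (77) and all features (14376) in the 5 comparisons. Both subunits lie left of 0 in the prefrontal gate comparison and right of 0 between NeuN+ groups and in the difference of the gate changes.

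Rpl22 and its paralog Rpl22l1 were called in opposite directions in prefrontal cortex. Rpl22l1 had 77.4 and 72.2 FPKM in prefrontal NeuN+ libraries, against 148 and 119 FPKM in prefrontal NeuN- libraries, and fell by 0.59 ± 0.10 (adjusted p = 2.0e-03), whereas Rpl22 rose. In cerebellum Rpl22 had 16.1 and 16.3 FPKM in NeuN+ and 12.8 and 12.4 FPKM in NeuN- libraries (0.34 ± 0.07, adjusted p = 3.2e-03), and Rpl22l1 had 78.3 and 88.1 FPKM in NeuN+ and 93.6 and 99.3 FPKM in NeuN- libraries (-0.21 ± 0.10, adjusted p = 0.11). Rps27l, a paralog of Rps27 induced by p53, was higher in cerebellar than in prefrontal NeuN+ by 0.96 ± 0.17 (adjusted p = 1.6e-03). The left-out Rps4l was lower in NeuN+ in both regions, 5.15-fold in cerebellum (adjusted p = 1.1e-06) and 2.29-fold in prefrontal cortex (adjusted p = 1.8e-05).

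**Figure D4:**
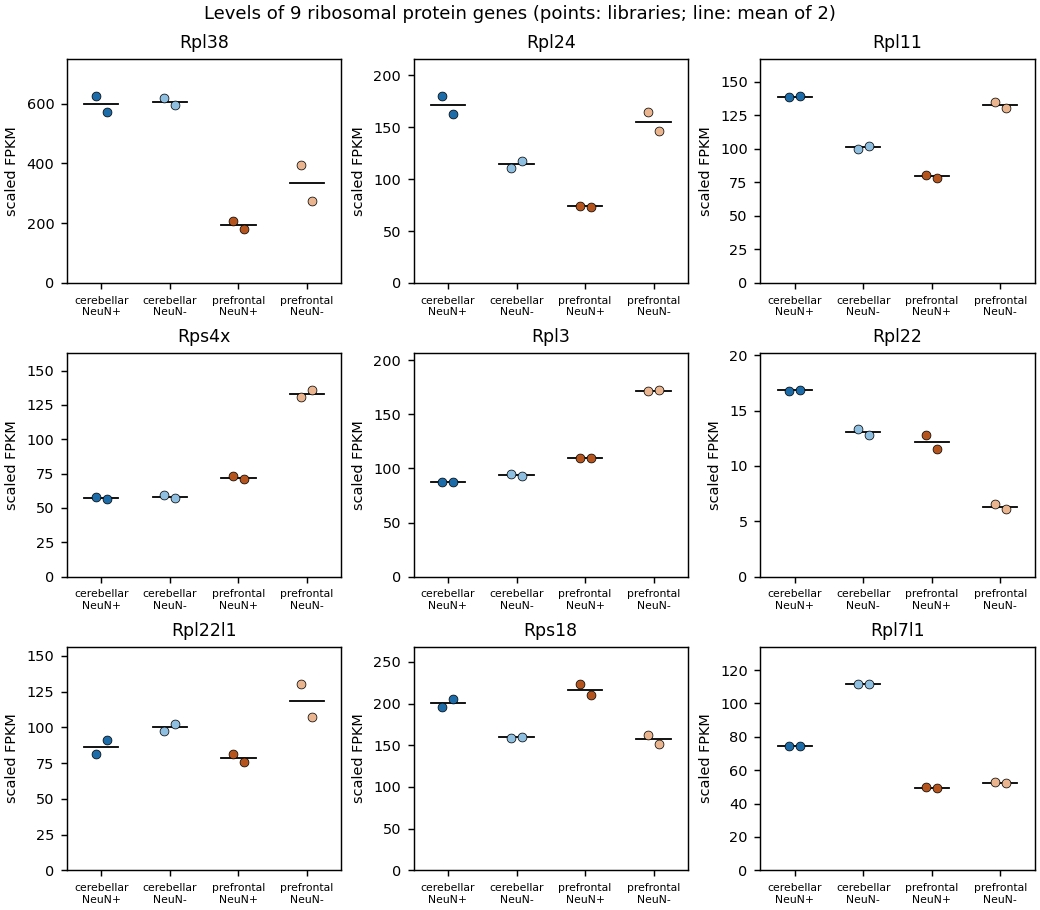
Points give scaled FPKM in each library and lines the mean of the 2 libraries of a group, for 9 ribosomal protein genes on linear axes from 0. Prefrontal NeuN+ is lowest for Rpl38, Rpl24 and Rpl11, prefrontal NeuN- is highest for Rps4x and Rpl3 and lowest for Rpl22, and cerebellar NeuN- is highest for Rpl7l1.

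For 4 genes the tables list a near-identical copy at almost the same mm9 place, and their values are uncertain. Rpl26 (chr11:68715068-68718036) overlaps Gm15772, Rpl30 (chr15:34370263-34373031) overlaps Gm12191, Rps27 (chr3:90016589-90017570) overlaps Rps27rt, and Rpl34 (chr3:130429745-130433316) overlaps Rpl34-ps1. Copies listed at other mm9 places, such as those of Rps15a, were not summed. For the 4 genes here, RefSeq lists each copy on another chromosome. The copy took most of the FPKM: Rpl26 was given 0.000649% to 21.3% of the sum of both, Rpl30 12.8% to 45.5%, Rps27 4.60% to 17.6% and Rpl34 5.52% to 26.9%.

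The split also differed within groups. Rpl26 had 12.1 and 16.2 FPKM in cerebellar NeuN+ libraries, 31.3 and 8.44 in cerebellar NeuN-, 0.00081 and 4.25 in prefrontal NeuN+ and 38.1 and 46.3 in prefrontal NeuN-. Summed with Gm15772 it had 254 and 247 FPKM in cerebellar NeuN+, 216 and 228 in cerebellar NeuN-, 125 and 120 in prefrontal NeuN+ and 263 and 217 in prefrontal NeuN-, and in the sum both prefrontal NeuN+ libraries lie below the other 6. Its prefrontal gate change was -4.03 ± 0.85 alone (adjusted p = 4.9e-03) and -0.72 ± 0.08 in the sum (adjusted p = 2.6e-04). Between NeuN+ groups, cerebellum over prefrontal cortex, it was 2.73 ± 0.85 alone (adjusted p = 0.023) and 1.02 ± 0.08 in the sum (adjusted p = 3.6e-05).

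For Rpl30 and Rps27 the sum turned the direction between NeuN+ groups. Rpl30 changed by -0.47 ± 0.14 alone (adjusted p = 0.020) and by 0.75 ± 0.07 in the sum (adjusted p = 7.3e-05), and Rps27 changed by -0.62 ± 0.23 alone (adjusted p = 0.044) and by 0.57 ± 0.14 in the sum (adjusted p = 8.7e-03). Between NeuN- groups Rpl30 changed by -1.68 ± 0.14 alone (adjusted p = 4.0e-05) and by -0.17 ± 0.07 in the sum (adjusted p = 0.063), which is not called. Rpl34 was called in none of the 5 comparisons alone, with 0 of 5 at an unadjusted p under 0.05, and in the sum it was higher in cerebellum in NeuN+ (0.49 ± 0.13, adjusted p = 9.9e-03) and in NeuN- (0.54 ± 0.13, adjusted p = 6.5e-03). Without these 4 genes, 56 of 76 were lower and 3 higher in the prefrontal gate comparison, and 60 of 76 were higher and 3 lower for the difference of the gate changes. Over all features, 37.6% were lower and 35% higher in the prefrontal gate comparison, and 33.1% were higher and 37% lower for the difference.

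**Figure D5:**
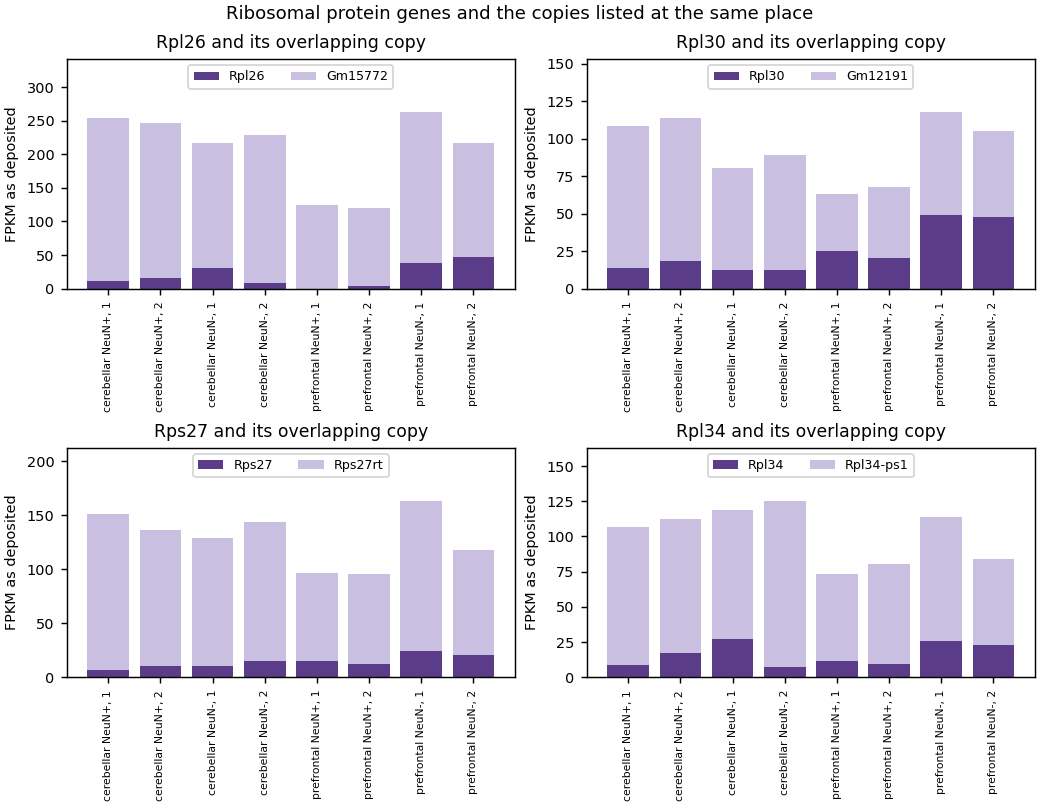
Stacked bars give FPKM as deposited for each of 4 ribosomal protein genes and the copy listed at the same place, by library. The copy holds the larger part of every bar, and in each panel both prefrontal NeuN+ sums are the lowest.

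Replicates differed most in prefrontal NeuN-. There the median ribosomal protein gene was higher by 0.16 in replicate 1 than in replicate 2 on the log2 scale, with 69 of 80 genes higher, while the median over all features was -0.01. The largest gap was that of Rps29, 0.63. In the other 3 groups the median gap ran from -0.02 to 0.04. The gap in prefrontal NeuN- went with the fragments per FPKM, with a Spearman correlation of -0.58 over the 80 genes, so that genes with few fragments per FPKM were higher in replicate 1. It was -0.33 in prefrontal NeuN+, -0.01 in cerebellar NeuN- and 0.00 in cerebellar NeuN+. Over the same 80 genes the correlation with the log2 change was 0.17 in the prefrontal gate comparison, -0.06 in the cerebellar one, -0.33 between NeuN+ groups, -0.12 between NeuN- groups and -0.24 for the difference of the gate changes. All share the libraries and the length correction, and the 9 values are given as a description.

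The genes were also split at the median of that measure. Of the 40 genes with fewer fragments per FPKM, 27 were lower in the prefrontal gate comparison (median -0.53), and of the 40 with more, 31 were (median -0.46). For the difference of the gate changes 30 and 32 were higher, with medians of 0.73 and 0.60. Between NeuN+ groups 33 and 28 were higher, with medians of 0.74 and 0.57. The shares of all features were 37.6% lower in the prefrontal gate comparison, 33.1% higher for the difference and 36.5% higher between NeuN+ groups.

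Small nucleolar RNAs lie inside 23 of the 83 genes, 33 features in all, among them 4 in Rpl13a (Snord32a, Snord33, Snord34 and Snord35a) and 3 in Rpl23a. These host genes had a median prefrontal gate change of -0.34 with 16 of 23 lower, against -0.54 with 42 of 57 lower for the other tested genes. The difference of the gate changes had a median of 0.59 in host genes and of 0.73 in the others. The 83 loci are short, with a median length of 3068 bases against 20579 for all tested features. Of 60 tested genes with a listed promoter, the 23 with the pyrimidine run had 14 higher and 0 lower in the cerebellar gate comparison (median 0.32), and the 37 without it had 14 higher and 7 lower (median 0.08). In the prefrontal gate comparison the medians were -0.46 with the run and -0.54 without it. Among all features, 37.6% were lower in the prefrontal gate comparison, and 32.4% were higher and 39.2% lower in the cerebellar one.

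Other parts of the translation machinery were counted in the same fits. These lists were not recomputed under the other scalings, which moved the median of all features in the prefrontal gate comparison to between -0.19 and 0.14. A first list held 22 translation factors and other messages described as having a terminal oligopyrimidine tract. Their starts were not examined for the run. Of the 22, 13 were lower and 5 higher in the prefrontal gate comparison (median -0.25), and 16 were higher and 4 lower for the difference of the gate changes (median 0.59). Over all features, 37.6% were lower and 35% higher in the prefrontal gate comparison, and 33.1% were higher and 37% lower for the difference. Fau, whose product is a ribosomal protein fused to a ubiquitin-like protein, was 1.92-fold lower in prefrontal NeuN+ (adjusted p = 6.9e-05). Eef1a2, the elongation factor of neurons and muscle, was 2.32-fold higher there (adjusted p = 1.2e-05) and 2.75-fold higher in cerebellar NeuN+ (adjusted p = 5.2e-06).

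Mitochondrial ribosomal proteins, which build the separate ribosome of mitochondria, gave 52 of 77 genes lower and 7 higher in the prefrontal gate comparison (median -0.36) and 43 higher and 16 lower in the cerebellar one (median 0.22). Between NeuN+ groups 32 were higher in cerebellum and 30 lower (median 0.03), and between NeuN- groups 10 were higher and 57 lower (median -0.52). As shares of the 77 genes these were 41.6% and 39.0% between NeuN+ groups, near the 36.5% and 40.7% of all features, and 13.0% and 74.0% between NeuN- groups, where all features gave 40.5% and 39%. In the gate comparisons all features gave 37.6% lower and 35% higher in prefrontal cortex, and 32.4% higher and 39.2% lower in cerebellum. For the difference of the gate changes 45 of the 77 were higher (58.4%) and 8 lower (10.4%), with a median of 0.49. All features gave 33.1% higher and 37% lower there, so the mitochondrial genes share the direction of the cytosolic ones. A difference between the mitochondrial and the cytosolic genes was not tested.

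Of 29 ribosome assembly genes, 9 were higher and 9 lower in the prefrontal gate comparison (median -0.02), shares of 31.0% each that lie near the 35% and 37.6% of all features. Among them, Nvl was 3.61-fold higher (adjusted p = 1.5e-06) and Rrs1 2.74-fold lower (adjusted p = 3.5e-06). Between NeuN+ groups 9 of the 29 were higher in cerebellum and 17 lower (median -0.42), where all features gave 36.5% higher and 40.7% lower. Of 14 RNA polymerase I genes, 9 were higher and 2 lower in prefrontal NeuN+ (median 0.29), where 35% of all features were higher and 37.6% lower, among them Taf1b 2.80-fold (adjusted p = 4.7e-06) and Polr1a, the largest subunit, 1.95-fold higher (adjusted p = 2.6e-05). For the difference of the gate changes 2 of the 14 were higher and 8 lower (median -0.45), where all features gave 33.1% and 37%. Of 12 regulators, 6 were higher and 1 lower in prefrontal NeuN+ (median 0.20), beside the same 35% and 37.6% of all features: Rptor, the mTOR partner, was 1.95-fold higher (adjusted p = 6.6e-05) and Rheb, its activator, 1.42-fold lower (adjusted p = 7.7e-05).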

How the data were processed

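Nuclear RNA was measured in 8 libraries, 2 for each of 4 groups. Per the file headers, the deposited values are FPKM with confidence limits in gene-level Cufflinks tables, already divided by length and library size, so no count test was run. Trim Galore 0.3.7, Bowtie 1.1.1, TopHat2 2.1.1, Bismark, Cufflinks and mm9 stand in the submitters' processing notes, without roles. No annotation or strand setting is named in them, so reads of overlapping and antisense genes cannot be told apart.

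Libraries were scaled by the median of ratios over 9109 features. A feature entered the fit when 2 or more libraries reached 1 FPKM, which left 14376. The model in limma 3.58.1 (R 4.3.3) took log2(scaled FPKM + 1) with 4 group means, a variance trend, 4 residual degrees of freedom, two-sided tests and Benjamini-Hochberg adjustment over all features. It was tested on simulated data. Genes were named as the 10 largest called changes in each direction, those over 3 scaled median absolute deviations from the set's median, the 5 highest and 5 lowest levels, and paralogs; Rplp0 and Rplp1 were chosen after values were seen. Some genes that this rule names are not reported here. The ribosomal protein genes and the lists were chosen with earlier results of these data known, so the lists get counts and medians and no test of their own. Scaling, pseudocount, filter, trend, replicate block, libraries fitted, each library left out and summed copies were varied; summing was chosen after seeing the data.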

Additional observations from a re-analysis of the deposited data

Results flagged for a closer look

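These results differ between the regions by a test of the difference itself, the log2 change of NeuN+ over NeuN- in cerebellum minus that in prefrontal cortex (limma, adjusted over all features). The difference was called higher for 62 of the 80 tested ribosomal protein genes and lower for 3. Over all features, 33.1% were higher and 37% lower. Of 77 mitochondrial ribosomal protein genes, 45 were higher and 8 lower.

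Among the cytosolic genes, Rpl26 stood at 3.82, Rpl24 at 1.64, Rpl18 at 1.477, Rpl30 at 1.21, Rpl11 at 1.19, Rps28 at 1.14, Rps25 at 1.12, Rpl15 at 0.99 and the paralog Rps27l at 0.68. In the other direction stood Rpl22 at -0.51, Rpl7l1 at -0.50 and Rpl9 at -0.25. Summed with the overlapping copies, Rpl26 stood at 0.90 (adjusted p = 5.5e-04) and Rpl30 at 0.92 (adjusted p = 2.4e-04). The summed haemoglobin messages were lowest in prefrontal NeuN+ as well, and general neuronal (median 0.79), oligodendrocyte (1.22) and microglia markers (2.38) also had positive differences. Inhibitory neuron (-1.62), cortical projection neuron (-0.50) and vessel markers (-0.67) had negative ones. The part of these messages in the differences was not tested. Rpl26, Rps27l and Rpl9 each lost the call in several of the 19 settings.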

How the results depend on the processing

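The 88 called results of named genes were recomputed under 19 settings. Of 1657 values, 1579 kept direction and call, 75 lost the call and 3 reversed: Rps2 in the prefrontal gate comparison without scaling (-0.017), and Rpl30 (0.75) and Rps27 (0.57) between NeuN+ groups when summed with the overlapping copy. Scaling moved these counts by over 1.5 times: higher in the prefrontal gate comparison, 8 with quantile normalization and 9 at a common sum; between NeuN- groups, 11 higher and 38 lower as deposited, 47 and 9 with quantile normalization, 44 and 10 at a common sum; lower for the difference of the gate changes, 7 in both of the last settings. Leaving out 1 library at a time gave 3 to 5 higher in the prefrontal gate comparison, 6 to 12 lower in the cerebellar one, 5 to 8 lower between NeuN+ groups and 2 to 5 lower for the difference; in these settings a group left with 1 library is assumed to vary like the others.

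Same-numbered replicates did not deviate together (correlations -0.045 to 0.034), and what the numbers mean is not stated, so they were not used to pair libraries; with them as a block the counts higher and lower were 3 and 59 in the prefrontal gate comparison, 36 and 9 in the cerebellar one, 60 and 7 between NeuN+ groups, 22 and 25 between NeuN- groups, and 62 and 4 for the difference. With the block, 48.3%, 45.2%, 47.2%, 51.1% and 47.4% of all calls were higher in these comparisons, in that order. A fit of 4 libraries could not be made for the difference of the gate changes. With 2 libraries a group, 1 mouse and no stated depth, a change not called here is not shown to be absent.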
